A study of Mus musculus with 18 samples.

Results

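Wild-type cells at the start and at the end of one course of treatment were compared in 6 libraries: 3 of fresh splenic natural killer (NK) cells and 3 of NK cells that had been primed with IL-15 and then stimulated through the receptor NKG2D. These are 6 of the 18 RNA-seq libraries of the series, chosen by their labelled genotype and condition alone. All cells were YFP-positive cells sorted from spleens of Rosa YFP/YFP Ncr1 CRE-ERT2 mice, in which a tamoxifen-dependent Cre, driven by the NK-cell gene Ncr1, switches on the YFP reporter; the labels call this genotype wild type. It has no floxed Acly, the allele that the knock-out libraries of the series carry. The mice of every group, fresh cells included, had received a tamoxifen diet for 48 hours, and cells were sorted 5 days after its withdrawal. Stimulated cells had been kept in IL-15 at 100 ng/ml for 72 hours, washed, and placed for 6 hours on plates coated with NKG2D reagent at 20 ug/ml. The 3 libraries of cells taken after IL-15 alone (primed) served to split the net change into 2 steps. The labels describe no washed or uncoated-plate control, so culture, IL-15, washing and NKG2D engagement cannot be told apart in the net change. In the step from primed to stimulated cells, washing, the 6 further hours and NKG2D engagement cannot be told apart either. A change by stimulation below means a change over this whole step. Whether the 3 replicates of a group came from different animals is not labelled. Xist, expressed from the inactive X chromosome of females, read 121, 61.3 and 45.9 CPM in replicate 1 of fresh, primed and stimulated cells and at most 0.0477 CPM in the others, whereas the Y-linked Ddx3y read 0 in each replicate 1 and 30.9 to 75.5 CPM in replicates 2 and 3. Each condition thus held 1 library of female and 2 of male pattern, and p-values cover the variation among these libraries, animals of different sex included.

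NK cells are lymphocytes that kill infected or transformed cells by releasing granzymes and perforin, and that secrete cytokines and chemokines. Fresh spleen cells are mostly resting and circulate under control of the factor KLF2 and of receptors for sphingosine 1-phosphate. IL-15 acts through JAK and STAT5 signalling to keep NK cells alive and to drive growth, nutrient uptake and division. NKG2D, the product of Klrk1, recognises stress-induced ligands and signals through the adaptors DAP10 (Hcst) and DAP12 (Tyrobp).

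The fresh libraries held 19263118 to 24480276 reads assigned to genes, the primed ones 20456261 to 34111238 and the stimulated ones 20507809 to 34367538. Levels below are CPM values, the count of a gene relative to the library total after a composition (TMM) factor, for each library in replicate order. Changes are log2 fold changes from edgeR's quasi-likelihood test, with p-values adjusted by Benjamini and Hochberg over the 14864 genes tested, and a gene passed at an adjusted p of 0.05. The values are relative to all RNA of a library, so fewer cells of a kind and less RNA per cell cannot be told apart. Markers that define NK cells had reads in every library, although 8 of the 10 were lower after stimulation. The summed level of the 10 was 16090 to 18010 CPM in fresh and 6830 to 8205 CPM in stimulated libraries. Single markers differed widely in stimulated cells, from Itga2 at 15.2, 14.9 and 14.2 CPM to Il2rb at 2953, 2482 and 2063 CPM. Markers of other cells moved too. The 18 monocyte, macrophage and neutrophil markers summed to 737 to 833 CPM in fresh and 205 to 215 CPM in stimulated cells, where 10 of them had no read. Most of the fresh sum came from Itgam and Ly6c2, which NK cells express as well (489.5 to 581 and 175 to 228 CPM), and Cd68 rose, from 11.1 to 14.6 CPM fresh to 46.8 to 68.8 CPM stimulated. Of the 15 erythroid and platelet markers measured, 9 had no read in stimulated cells. Among these 9, Hbb-bs and Hba-a2, red-cell globin genes whose near-identical copies share reads, averaged 50.4 and 47.1 CPM in fresh cells. Car2, a carbonic anhydrase of the same list, rose from 850.0, 659.5 and 653 to 4396, 3738 and 4093 CPM and carried the summed level of the list from 779 to 1007 CPM in fresh to 3739 to 4396 CPM in stimulated libraries. The part of these other cells in the results below was not tested.

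About as many genes were higher as lower at the end of the course. Stimulated cells had 3914 genes higher and 3886 lower than fresh cells, which is 26.3% and 26.1% of the genes tested and 52.5% in either direction. The change reached 2-fold in 2108 of the higher and 2251 of the lower genes. In 64.8% of the genes tested the 3 libraries of one condition all lay above the 3 of the other. Primed cells had 3945 genes higher (26.5%) and 4042 lower (27.2%) than fresh cells, and stimulated cells had 1367 genes higher (9.2%) and 1587 lower (10.7%) than primed cells. The median log2 change of all tested genes was -0.01 for the net change, -0.06 for priming and -0.01 for stimulation.

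Of the 4509 genes that priming changed at least 2-fold, 178 had returned to the fresh level after stimulation. A gene was counted as returned when stimulation had changed it against the direction of priming, its net change did not pass, and the 95% interval of the net change lay within 2-fold of the fresh level on both sides. These were 3.95% of the genes changed by priming, or 1.2% of all genes tested, with 92 that priming had raised and 86 that it had lowered. A further 633 genes (14%) were partly reversed, with stimulation moving them back while they still differed from fresh cells in the direction of priming; 424 of these had been raised and 209 lowered. In 35 genes stimulation carried the level past that of fresh cells to the other side. The priming change was held in 2749 genes (61%), where the net change passed but no change by stimulation did. It was extended in the same direction in 213. No interval was asked of the held genes, so some may have moved with stimulation. Il2ra was 1 of them, with a stimulation change of 1.28 on the log2 scale (adjusted p = 0.0644). In 142 genes the reversal passed but the interval of the net change was too wide to tell a return from a remaining difference. The remaining 559 genes (12.4%) met none of these definitions, so their course was not placed. The step of priming and the step of stimulation share the 3 primed libraries, so an error in those libraries moves both steps, in opposite directions. The primed libraries also varied most, with coefficients of biological variation of 0.281 when primed, 0.183 when fresh and 0.197 after stimulation. The third primed library stood apart from the other two in genes such as the interferon-regulatory factor gene Irf8 (180.3, 148 and 519 CPM) and the class I gene H2-D1 (452, 444 and 4338 CPM). Without it 193 genes met the rule, 138 of which were among the 178. Over the 9 fits that each left out 1 wild-type library, 73 of the 178 met the rule every time and 33 fewer than 5 times.

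**Figure D1:**
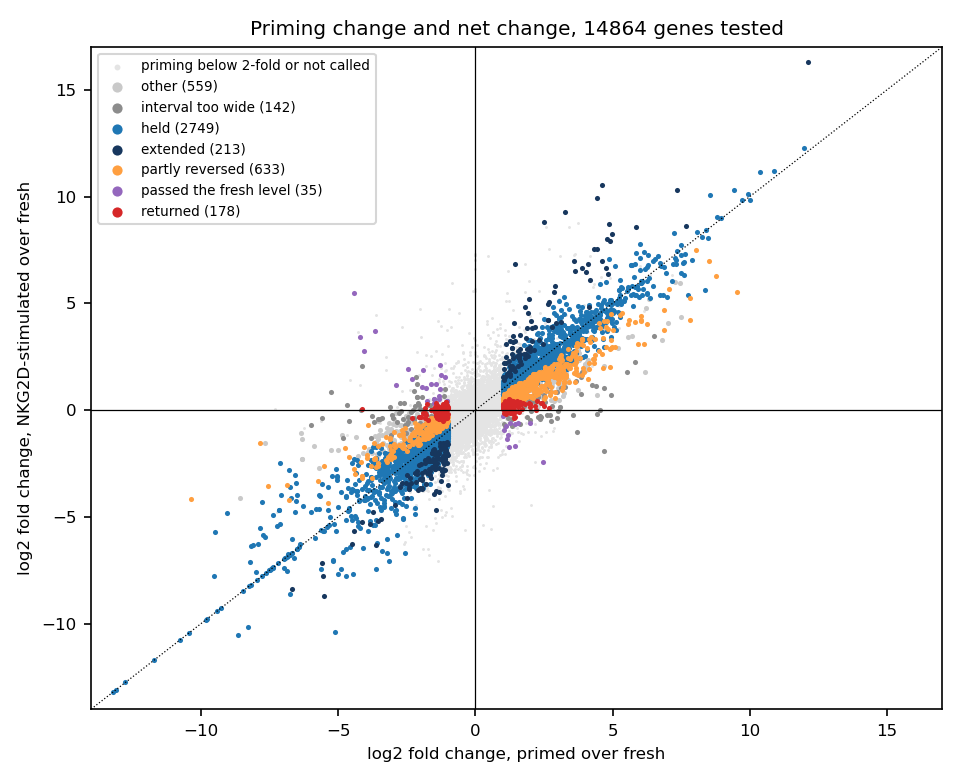
Log2 fold change of primed over fresh cells (horizontal) against that of NKG2D-stimulated over fresh cells (vertical) for each gene tested; colours give the course of the genes that priming changed at least 2-fold, with the number of genes in brackets, and the dotted line marks a net change equal to the priming change. The 178 returned genes lie along the horizontal zero line, the 2749 held genes near the dotted line and the 35 genes that passed the fresh level in the corners where the signs differ.

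The returned genes that priming had raised included many of growth and metabolism. Of the 92, 28 stood in the gene lists used here, against 3 of the 86 that priming had lowered. The share of listed genes among all genes that priming raised or lowered was not counted. Some lists were raised almost whole by priming, such as cell cycle (44 raised, 1 lowered) and ribosome biogenesis (41 and 1). Others were mostly lowered, such as quiescence and stem-like genes (2 and 25). Ribosome biogenesis factors gave 10, genes of glycolysis and of the response to low oxygen 5, interferon-stimulated genes 4, and cholesterol synthesis and fatty acid metabolism 3 each. As a share of the members that priming changed at least 2-fold, the returned members were 33.3% of 30 in ribosome biogenesis, 27.3% of 11 in fatty acid metabolism, 21.7% of 23 in glycolysis, 13.3% of 30 interferon-stimulated genes and 13.0% of 23 in cholesterol synthesis, beside 3.95% over all such genes. These were the lists with at least 3 returned members. Other lists had at most 1, such as 1 of 42 in cell cycle (2.38%) and 1 of 7 in the NF-kappaB pathway (14.3%). Many had 0, such as granule proteins and death ligands with 13 members changed by priming. The net change of the 178 genes had a median of 0.07 and ran from -0.52 to 0.53 on the log2 scale. The libraries of fresh and stimulated cells overlapped in 133 of them. In 23 the unadjusted p of the quasi-likelihood test for the net change was under 0.05. The rule selects small net changes, so these values describe the set and are no separate evidence of return. In 137 the mean level after stimulation still lay between those of fresh and primed cells. The members closest to the limit were Zfp513, with an interval of the net change from -0.999 to 0.202, and Zfp296, with 0.054 to 0.995, both just inside, and Ifit2, with -1.004 to 0.233, just outside.

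Promoters of genes from 3 of these groups are shown as examples, although members of each group took different courses after stimulation. Bnip3, Pgam1, Nop2 and Insig1 returned and Hmgcs1 was partly reversed; they were picked after their values and the motif matches had been seen. Each line gives the 250 bases before the RefSeq start site (GRCm38.p6), 5′ to 3′ on the gene's strand. Capitals mark ACGTG or its complement in Bnip3 and Pgam1, the core of the element bound by hypoxia-inducible factors; CACGTG in Nop2 and Insig1, the E-box read by MYC, USF and related factors, which contains the former; and CACCCCAC in Hmgcs1, the core of a sterol response element. The windows lie at chr7:138909507-138909756 (minus strand, Bnip3), chr19:41911621-41911870 (plus, Pgam1), chr6:125131633-125131882 (plus, Nop2), chr5:28071162-28071411 (plus, Insig1) and chr13:119690101-119690350 (plus, Hmgcs1).
Bnip3: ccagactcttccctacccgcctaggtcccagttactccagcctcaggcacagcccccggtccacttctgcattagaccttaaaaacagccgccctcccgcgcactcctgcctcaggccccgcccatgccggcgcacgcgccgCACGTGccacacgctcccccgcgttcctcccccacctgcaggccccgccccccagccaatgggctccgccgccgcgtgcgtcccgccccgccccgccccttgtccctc
Pgam1: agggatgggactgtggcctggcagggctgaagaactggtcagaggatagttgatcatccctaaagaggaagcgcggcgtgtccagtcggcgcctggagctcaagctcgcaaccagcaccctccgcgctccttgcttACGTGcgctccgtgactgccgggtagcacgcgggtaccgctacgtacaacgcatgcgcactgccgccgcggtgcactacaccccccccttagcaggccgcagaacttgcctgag
Nop2: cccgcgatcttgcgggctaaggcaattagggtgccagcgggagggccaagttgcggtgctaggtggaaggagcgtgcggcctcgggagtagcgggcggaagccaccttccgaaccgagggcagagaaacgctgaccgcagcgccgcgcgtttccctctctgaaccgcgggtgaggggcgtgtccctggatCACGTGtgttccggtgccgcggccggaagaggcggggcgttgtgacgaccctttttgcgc
Insig1: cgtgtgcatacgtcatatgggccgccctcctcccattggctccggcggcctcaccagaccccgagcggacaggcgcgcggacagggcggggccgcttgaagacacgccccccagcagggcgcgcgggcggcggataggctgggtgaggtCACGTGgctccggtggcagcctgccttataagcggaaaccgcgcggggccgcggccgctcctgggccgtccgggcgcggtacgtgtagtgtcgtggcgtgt
Hmgcs1: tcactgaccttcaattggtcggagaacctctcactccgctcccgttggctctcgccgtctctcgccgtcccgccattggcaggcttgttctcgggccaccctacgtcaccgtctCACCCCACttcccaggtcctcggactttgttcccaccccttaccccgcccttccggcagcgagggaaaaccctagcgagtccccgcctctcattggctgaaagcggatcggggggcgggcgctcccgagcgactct
Bnip3 holds CACGTG, which reads ACGTG on both strands, starting 108 bases before the start site, and the single matches of the others start at 114 bases in Pgam1, 60 in Nop2, 101 in Insig1 and 136 in Hmgcs1. Both strands were searched in the windows of the 9957 tested genes that matched the table by symbol. ACGTG was found in 25.0% of all these genes and in 17 of the 27 glycolysis and low-oxygen genes with a window (63.0%). CACGTG was found in 9.69% of all, in 19 of the 138 returned genes with a window (13.8%), in 2 of 41 ribosome biogenesis genes (4.88%) and in 4 of 17 cholesterol genes (23.5%). CACCCCAC was found in 3.34% of all and in 2 of 17 cholesterol genes (11.8%). The glycolysis and low-oxygen genes held the latter motifs at much the same shares, CACGTG in 6 of 27 (22.2%) and CACCCCAC in 3 of 27 (11.1%), and ACGTG was found in 39 of the 138 returned genes (28.3%), near the share of all. These are matches of letters, not measured binding.

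Ribosome biogenesis factors rose with priming and came down close to the fresh level. Priming raised 41 of the 45 tested, with a median of 1.21, stimulation lowered 33, and the net change had a median of 0.43 with 23 higher and 2 lower. Nop58, a core protein of the box C/D particles that guide rRNA methylation, read 75.5, 62.7 and 64.9 CPM in fresh, 216, 229 and 200.4 in primed and 87.7, 75.3 and 81.5 in stimulated cells. The fresh and stimulated libraries overlapped, and the net change was 0.27 (95% interval 0.01 to 0.53, adjusted p = 0.0797). Gnl3, which encodes nucleostemin, went from 16.7, 13 and 13.2 CPM to 57.1, 59.6 and 49 and back to 20.3, 16.9 and 17. Its stimulated libraries all lay slightly above the fresh ones, with a net change of 0.34 that did not pass (adjusted p = 0.0629) but did without the first fresh library (0.47). Nop2, an rRNA methyltransferase, had net change 0.36 (interval 0.05 to 0.67), and Polr1b, the second largest subunit of RNA polymerase I, 0.20 (-0.24 to 0.63). The others that returned were Nolc1, Rrp12, Rrp1b, Utp15 and Wdr75, and Npm3, which did so in only 2 of the 9 fits that left out 1 library and had a net rise that passed (0.60) without the third fresh library. A net rise also passed in 1 of these fits for Nop58 and for Rrp12, and in 2 each for Nop2 and Wdr75.

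Other ribosome biogenesis factors stayed raised or ended below the fresh level. Npm1, nucleophosmin, held its rise, from 594, 587 and 601 CPM in fresh to 1896, 2124 and 1754 in primed and 1698, 1863 and 2108 in stimulated cells (net change 1.67, SE 0.0984, adjusted p = 3.52e-10). Nop56, a partner of Nop58 in the same particles, was partly reversed, with 109, 95.1 and 96.2 CPM fresh, 300.1, 325 and 285 primed and 156, 132 and 132 stimulated and a net change of 0.48 (adjusted p = 0.000596). Nop58 and Nop56 thus fell on either side of the rule with net changes of 0.27 and 0.48; their difference was not tested. Ubtf, a factor for RNA polymerase I, ended lower than in fresh cells (-0.76, adjusted p = 8.66e-05), and so did Wdr43 (-0.54, adjusted p = 0.00204).

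**Figure D2:**
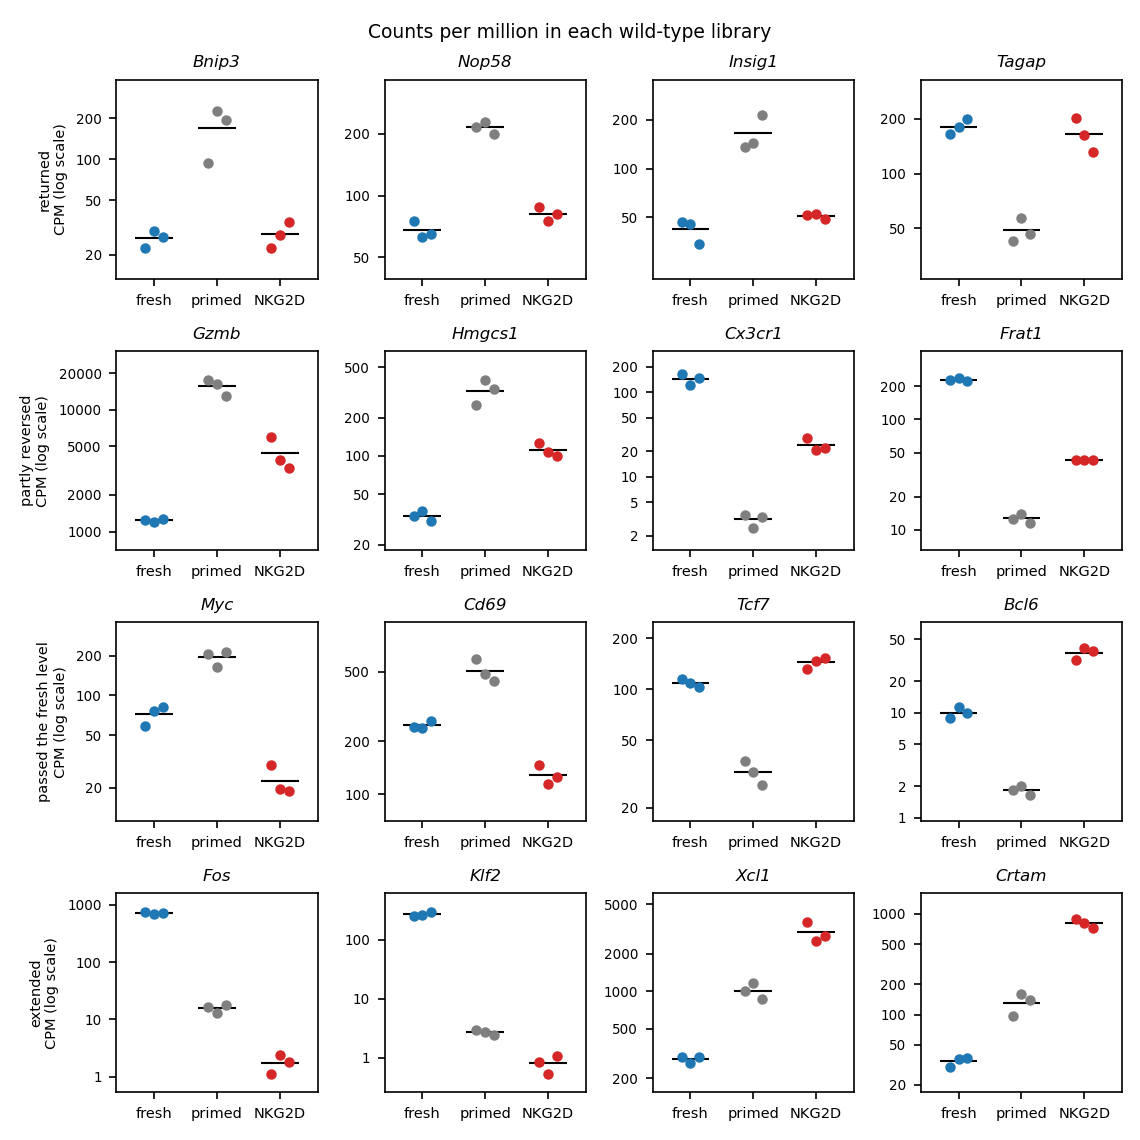
Level in CPM (log scale) of 16 genes in each of the 9 wild-type libraries, 3 per condition, as points with a bar at the mean; the rows show genes that returned, were partly reversed, passed the fresh level or were extended. In the first row fresh and stimulated points lie at about the same height apart from the primed ones, which the rule of return asks for. In the last row the stimulated points lie farthest from the fresh ones.

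Glycolysis genes split into returned, partly reversed and reversed beyond the fresh level. Of the 32 tested, priming raised 25 (median change 2.15), stimulation lowered 23, and 15 were higher and 4 lower in the net comparison (median 0.68). Bnip3, a mitophagy receptor induced by low oxygen, read 22.5, 30.1 and 26.9 CPM fresh, 93.3, 226 and 192 primed and 22.4, 28 and 34.8 stimulated. Fresh and stimulated libraries overlapped throughout, with a net change of 0.10 (interval -0.41 to 0.60). Pdk1, the kinase that restrains pyruvate entry into mitochondria, went from 4.72, 3.47 and 2.09 CPM to 15.7, 22.1 and 20.5 and back to 3.31, 4.15 and 4.45 (net change 0.20, interval -0.38 to 0.78). The enolase gene Eno1 read 993, 1112 and 1200.4 CPM, then 4836, 6952 and 5735, then 1339.5, 1424 and 1463. Its stimulated libraries remained above the fresh ones by 0.35, which did not pass (adjusted p = 0.0866). Pgam1, phosphoglycerate mutase, and Ero1l, an oxidase of disulphide bond formation, returned with net changes of 0.33 and 0.26. The net rise of Pgam1 passed without the third stimulated library.

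The terminal enzyme Ldha, lactate dehydrogenase A, was partly reversed: 456, 524 and 575 CPM fresh, 2813, 4054 and 3128 primed and 1253, 1142 and 1142 stimulated (net change 1.19, SE 0.169, adjusted p = 1.57e-05). Aldoc, an aldolase, kept a larger part of its rise, at 2.09, 1.92 and 1.36 CPM, 74.3, 156 and 123 and 24.8, 37 and 40.3 (net 4.23), and Pgk1, phosphoglycerate kinase, had a net change of 2.16 (SE 0.147). The glucose transporter gene Slc2a1 passed the fresh level, with 74.5, 65.6 and 78.1 CPM fresh, 138, 203 and 176 primed and 51.7, 48.5 and 43.5 stimulated (net -0.60, adjusted p = 0.0065). Pfkl, the liver-type phosphofructokinase, did the same with 102, 131 and 134 CPM, 197, 291 and 322 and 55.6, 44 and 42.7 (net -1.36, adjusted p = 1.34e-05). Both thus ended with all stimulated libraries below all fresh ones. Pfkp, the platelet-type enzyme of the same step, was also lower at the end (-0.99, adjusted p = 4.56e-06), although priming had not changed it 2-fold.

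Cholesterol synthesis genes came part of the way back. Priming raised all 24 tested (median 2.80), stimulation lowered 21 (median -1.49), and 21 remained higher than in fresh cells (median 1.53); 18 were partly reversed and 3 returned. Hmgcs1, which makes HMG-CoA, read 33.5, 37 and 30.8 CPM fresh, 249.8, 393 and 335 primed and 126, 107 and 99 stimulated, with no overlap between the conditions (net 1.71, SE 0.136, adjusted p = 1.55e-08). Sqle, squalene epoxidase, read 1.78, 2.67 and 1.52, 109, 125 and 158 and 41.6, 36.8 and 30.1 CPM (net 4.18). Idi1, of isoprenoid synthesis, kept a net change of 2.96 (SE 0.147). Insig1, the protein that holds the sterol-sensing complex in the endoplasmic reticulum, returned: 46.4, 45.5 and 34 CPM fresh, 137, 145 and 215 primed and 51.4, 52.2 and 48.5 stimulated (net 0.27, interval -0.31 to 0.86). Dhcr7 and Nsdhl, enzymes of the late steps, returned with net changes of 0.14 and 0.08.

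Among 24 genes of fatty acid and acetyl-CoA metabolism 9 were higher and 4 lower in the net comparison, beside 26.3% and 26.1% of all genes tested. Scd2, a desaturase, returned from 256, 363 and 336 CPM when primed to 89, 101 and 78.6, beside 86.5, 72.1 and 81.7 in fresh cells (net 0.16, interval -0.11 to 0.44). Elovl6, an elongase, returned as well, but its net rise passed without the first stimulated library. Acsl3, an acyl-CoA synthetase, met the rule with all libraries but in 0 of the 9 fits that left out 1. Fads2, another desaturase, read 0, 0.188 and 0 CPM in fresh cells, 21.3, 30 and 34.2 when primed and 4.68, 5.29 and 5.2 after stimulation (net 6.26). The net value of Fads2 was 9.88 without the second fresh library, the one with reads, and 5.61 without the first. The 4 genes that ended lower were Acss2 (-2.89, adjusted p = 1.24e-05), which makes acetyl-CoA from acetate, its mitochondrial relative Acss1 (-1.40), Fasn, the fatty acid synthase (-1.04, adjusted p = 0.000386), and Acly. Acss2 held its fall from 67.2, 77.9 and 80 CPM to 4.82, 5.02 and 15.3 and 9.45, 10.1 and 10.8. Acly, ATP-citrate lyase and the gene floxed in the knock-out libraries, read 232, 254 and 265 CPM in fresh, 227, 279.6 and 262 in primed and 193, 170.4 and 128 in stimulated cells. Its net fall of -0.61 (SE 0.189, adjusted p = 0.012) appeared after stimulation and did not pass without the third stimulated library, which was the lowest.

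Interferon-stimulated genes followed a like course. Priming raised all 33 tested (median 2.49), and 25 stayed higher than in fresh cells (median 1.25), with 16 partly reversed and 4 returned. The returned genes were Ddx58 and Ifih1, which encode the RNA sensors RIG-I and MDA5, Ifi35, and Zbp1, a sensor of nucleic acids in the Z form; their net changes were 0.11, 0.32, 0.03 and -0.38. Isg20, an exonuclease, held its rise, with 5.46, 3.19 and 6.07 CPM fresh, 147, 117 and 106 primed and 75.1, 78.7 and 95.1 stimulated (net 4.08, SE 0.323). Gbp3, a guanylate-binding protein, was extended from 33.8, 31.3 and 36.6 CPM to 93.3, 83.2 and 70.2 and 149, 140.0 and 143 (net 2.09, adjusted p = 6.2e-08).

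**Figure D3:**
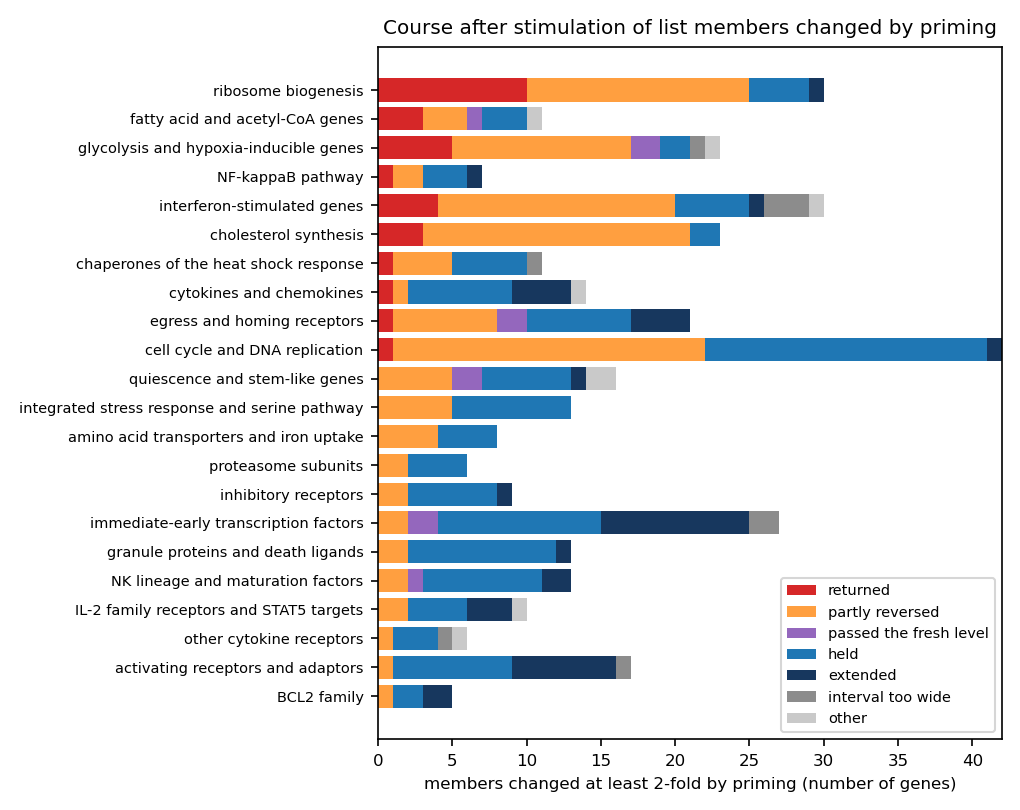
Number of list members that priming changed at least 2-fold, split by colour into their course after stimulation, for the 22 lists with at least 5 such members, ordered by the share that returned. Ribosome biogenesis has 10 of 30 returned, and lists in the lower part, such as activating receptors and granule proteins, are mostly held or extended.

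Of the 86 genes that returned after a fall, 83 stood in none of the lists. Tagap, a GTPase-activating protein of lymphocytes, read 164, 181 and 199 CPM fresh, 42.7, 57 and 46.8 primed and 201, 163 and 131 stimulated (net -0.13, interval -0.51 to 0.25). Calcoco1, an autophagy receptor, read 88.6, 110.0 and 106, 32.9, 29.2 and 37.9 and 114, 102 and 90.5 CPM (net 0.01, interval -0.26 to 0.29). In both, the fresh and stimulated libraries overlapped. Tgfb1, the gene of the cytokine TGF-beta 1, went from 10.5, 16.1 and 12.8 CPM to 5.67, 5.35 and 3.72 and back to 15.8, 16.5 and 17 (net 0.32, interval -0.24 to 0.88). Ski, an inhibitor of TGF-beta signalling, read 33.8, 35.5 and 37, 11.8, 11.9 and 15 and 24.8, 29.9 and 33.1 CPM, and its stimulated libraries all lay below the fresh ones by -0.28, which did not pass (adjusted p = 0.127). Sgsh, a lysosomal sulphatase, Dennd5a, an exchange factor for Rab proteins, Pip5k1c, a lipid kinase, and Klc4, a kinesin light chain, had net changes of -0.34, -0.35, -0.21 and -0.09; that of Dennd5a passed, at -0.66, without the first stimulated library. The widest swing of the returned genes was that of Kcnn4, a calcium-activated potassium channel, chosen after its values were seen: it read 2.94, 3.61 and 3.4 CPM fresh, 0.0472, 0.109 and 0.338 primed and 2.57, 3.77 and 4.03 stimulated (priming -4.14, net 0.05). It met the rule in 3 of the 9 fits that left out 1 library.

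The 35 genes that passed the fresh level included early-response and stem-like factors. Myc, the growth factor-induced transcription factor, rose from 58.2, 75.8 and 82.4 CPM fresh to 206, 165 and 211 primed and fell to 29.8, 19.5 and 18.9 after stimulation, so that every stimulated library lay below every fresh one (net -1.66, SE 0.222, adjusted p = 7.83e-06). Egr1, an immediate-early zinc-finger factor, behaved alike, with 29.8, 38.1 and 44.5, 129, 71.4 and 61.9 and 11.8, 10.8 and 10.8 CPM (net -1.74, adjusted p = 5.24e-06). Cd69, an activation marker that opposes S1PR1 at the cell surface, read 242, 239.6 and 262, 587, 488 and 440.2 and 147, 114 and 125 CPM (net -0.94, adjusted p = 5.12e-05). F2rl2, a protease-activated receptor, also ended below the fresh level (-0.62, adjusted p = 0.00546). Bspry and Cdk14 did so too (-0.61 and -0.64), but lost the call when 1 of several libraries was left out, with adjusted p of up to 0.155 and 0.0648.

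In the other direction, Bcl6, a transcriptional repressor of lymphocyte fate, fell from 8.83, 11.2 and 10 CPM fresh to 1.84, 2.02 and 1.63 primed and rose to 32.1, 41.3 and 39 after stimulation (net 1.90, SE 0.209, adjusted p = 8.24e-07). Cd81, a tetraspanin, read 3.64, 2.77 and 3.4, 0.0944, 0.164 and 0.277 and 22.2, 23.2 and 22.5 CPM (net 2.79, adjusted p = 1.68e-05). Igha, the immunoglobulin alpha constant region, read 1.43, 0.469 and 1.1, 0.0944, 0.0545 and 0 and 38.3, 40.9 and 57.3 CPM (net 5.48, adjusted p = 8.36e-09), and the immunoglobulin mu gene Ighm read 235, 233 and 229, 92.5, 100.3 and 89.1 and 431, 435 and 529 CPM. Beside these, 5 of the 12 B-cell markers had no read in stimulated cells; their part in the Igha and Ighm values was not tested. Tcf7, the factor TCF-1, went from 116, 109 and 103 to 37.9, 32.5 and 27.1 and 132, 148 and 152 CPM, and its small net rise of 0.40 (adjusted p = 0.0367) did not pass when 1 of 4 libraries was left out (adjusted p up to 0.102). Tgif1 (0.52) and Slc26a11 (1.06) passed, and the net rises of Klhl24 (0.33) and Gstm1 (0.53) were lost without 1 library (adjusted p up to 0.0854 and 0.19).

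The largest net rises were in a chemokine and in granzymes. Ccl1, a chemokine that acts on CCR8, had 1 read over the 3 fresh libraries and read 77.3, 113 and 79.9 CPM in primed and 1751, 1565 and 1608 CPM in stimulated cells. The ratio of stimulated to fresh was 110000 with a counting interval from 19700 to 4350000, which covers counting error only. Gzmd had 1 read in fresh cells and 76.6, 41.4 and 26.9 CPM after stimulation, a ratio of 3540 (634 to 140000), and Gzme, with no read in fresh cells, was at least 651-fold higher, taking 3 reads over the group as the limit of detection. Both were highest in replicate 1 among the primed and among the stimulated libraries. Gzmc, the granzyme C gene at chr14:56231441-56234656 (mm10, minus strand), read 4.57, 1.55 and 1.47 CPM fresh, 3234, 2917 and 1969 primed and 2877, 2249 and 2101 stimulated (net 9.85, SE 0.435, adjusted p = 1.25e-11, and 10.64 without the first fresh library). These granzymes are neighbouring, similar genes, and reads may be shared between them. Ahrr, the repressor of the aryl hydrocarbon receptor, went from 1 read in fresh cells to 25.3, 23.6 and 19.5 CPM (ratio 1540, 276 to 60900), and Ifitm1, an interferon-induced membrane protein, from 0, 0.516 and 0.314 to 136, 117 and 148 CPM.

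Stimulation added to some of the largest rises. Foxa3, a forkhead factor, read 0, 0.709 and 0.338 CPM in primed and 22.8, 22.2 and 20.7 CPM in stimulated cells, with 2 reads in all fresh libraries (ratio 730, 202 to 6030). Vipr2, a receptor for vasoactive intestinal peptide, read 0.378, 0.0545 and 0.154 and 14.5, 15.3 and 18.2 CPM, again with 2 reads in fresh cells (ratio 521, 144 to 4300). Cd300lb, a receptor of the CD300 family, read 0.426, 0.0939 and 0.105 CPM fresh, 7.04, 7.36 and 5.71 primed and 74.3, 108 and 105 stimulated (net 8.71, and 9.845 without the first fresh library). Ceacam1, an inhibitory adhesion receptor, read 0.232, 0.141 and 0.105, 3.68, 6.22 and 6.21 and 48.6, 54.9 and 49.7 CPM (net 8.23). Among the genes whose rise stimulation extended were also Mt2, a metallothionein, Lgals3, galectin 3 (4.82), Capg, an actin-capping protein (4.07), and Bcl2a1d, a survival protein of the BCL2 family with close copies (4.13).

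Genes of secreted and of cytotoxic effectors went both ways. Of 23 cytokine and chemokine genes 7 were higher and 7 lower, and of 30 granule proteins and death ligands 14 were higher and 10 lower. Over all genes tested 26.3% were higher and 26.1% lower, and the cytokine and chemokine counts were near these shares. Xcl1, lymphotactin, read 295, 262 and 295 CPM fresh, 999, 1174 and 864 primed and 3584, 2533 and 2801 stimulated (net 3.39, SE 0.191, adjusted p = 2.01e-10). Csf2, the gene of GM-CSF, rose by 2.56 (adjusted p = 0.000209) and was highest in the first stimulated library (38.5, 11.5 and 11.1 CPM), without which the rise was 1.715. Ifng, interferon gamma, was lower in every stimulated library: 493, 542 and 645 CPM fresh, 87.1, 83.3 and 63.1 primed and 88.2, 65.9 and 81.3 stimulated (net -2.84, SE 0.15, adjusted p = 9.91e-11). Ccl5, Ccl4 and Ccl3, chemokines of the CC class, fell likewise, by 2.33, 1.62 and 2.28 on the log2 scale, and their falls were held through stimulation. Ccl5 alone went from 19055, 20157 and 20188 CPM to 4007, 3878 and 3966. Tnf read 2.75, 1.13 and 3.61 CPM fresh and 5.22, 3.67 and 6.37 stimulated, a difference that did not pass (net 1.03, adjusted p = 0.0553) but did when any 1 of 3 libraries was left out (up to 1.39).

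Gzmb, granzyme B, was partly reversed, with 1254, 1209.9 and 1275 CPM fresh, 17635, 16376 and 12892 primed and 6022, 3889.9 and 3306 stimulated (net 1.82, SE 0.221, adjusted p = 2.55e-06). Prf1, perforin, and Gzma, granzyme A, fell after stimulation without a 2-fold change by priming. Prf1 read 2425, 2708 and 2975, 2953, 3069.6 and 2541 and 1176, 843 and 722 CPM (net -1.56, adjusted p = 3.74e-06), and Gzma 8935, 8906 and 9732, 11656, 11470.0 and 9196 and 5530.0, 4982 and 5616 CPM (net -0.77, adjusted p = 0.000356). Cma1, a chymase, lost nearly all of its level with priming and did not regain it: 468, 405 and 411 CPM fresh, 4.25, 3.27 and 2.86 primed and 2.51, 2.34 and 2.81 stimulated (net -7.39). The death ligand genes differed, Fasl falling (-1.85, adjusted p = 2.01e-10) and Tnfsf10, TRAIL, rising (2.15, adjusted p = 6.52e-06, and 2.749 without the first fresh library).

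Activating receptors were mostly lower, with Tnfrsf9 and Crtam among the exceptions. Of 33 activating receptor and adaptor genes 18 were lower and 8 higher. Over all genes tested 26.1% were lower and 26.3% higher, so the count of higher members was near the share of all. Klrk1, the NKG2D receptor itself, read 1178, 1248 and 1238 CPM fresh, 881, 856 and 743 primed and 859, 882 and 965 stimulated (net -0.44, SE 0.093, adjusted p = 0.000784), and its adaptors Hcst and Tyrobp fell by 1.28 and 0.96 on the log2 scale. Ncr1, the receptor NKp46 and the gene that drives the Cre, fell further with stimulation, from 973, 915 and 959.7 CPM to 414, 355 and 306 and 253, 174 and 175 (net -2.24, adjusted p = 1.64e-09). Klrb1c, NK1.1, did the same (-1.89), as did Cd247, the zeta signalling chain (-2.07). Tnfrsf9, the costimulatory receptor 4-1BB, held its rise from 136, 119 and 141 CPM to 1691, 2054 and 1519 and 2023, 1494 and 1217 (net 3.58). Crtam, an adhesion receptor of activated cytotoxic cells, rose in both steps, from 29.9, 36.5 and 37.1 to 96.3, 158 and 138 and 899, 804 and 728 CPM (net 4.55, SE 0.201, adjusted p = 1.23e-11).

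Of 24 inhibitory receptors 10 were higher and 7 lower, beside 26.3% and 26.1% of all genes tested. Havcr2, TIM-3, held its rise from 0.0387, 0.141 and 0.0524 CPM fresh to 26.3, 29 and 27.8 primed and 35.3, 24.9 and 22.5 stimulated (net 8.41, and 9.112 without the second fresh library). Pdcd1, PD-1, had no read in fresh cells and was at least 19.4-fold higher after stimulation. Cd96, a receptor for nectin-like ligands, rose from 131, 101 and 105 to 306, 314 and 332 CPM (adjusted p = 4.15e-09), while Klrc1, NKG2A, and Fcgr2b, an inhibitory Fc receptor, ended at -1.39 and -4.33. Of 12 Ly49 genes 5 were lower and 1, Klra5, was higher (3.02, adjusted p = 6.98e-10); these genes share sequence, so their reads may be split between copies.

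Immediate-early genes fell widely. Of 35 tested, 26 were lower and 5 higher than in fresh cells (median -2.19), beside 26.1% and 26.3% of all genes tested. Stimulation had extended the priming change in 10 of the 27 that priming changed at least 2-fold, beside 4.72% of all such genes. Fos, an AP-1 subunit at chr12:85473890-85477273 (plus strand), read 759, 698 and 727 CPM fresh, 16.4, 13.2 and 18 primed and 1.11, 2.38 and 1.83 stimulated (net -8.72, SE 0.323, adjusted p = 1.92e-12). Fosb, Dusp1, a phosphatase of MAP kinases, and Ppp1r15a, a stress-induced phosphatase subunit, took the same course with net changes of -7.14, -6.25 and -5.65. Ier2 read 479, 518 and 439, 15.8, 13.4 and 86.2 and 6.45, 6.44 and 4.78 CPM, with the third primed library well above the other primed ones. Nr4a1, an orphan nuclear receptor induced by antigen receptors, fell with priming and stayed low (425, 664 and 768, 20.1, 23.5 and 26.2 and 42.6, 38.2 and 32.2 CPM). Egr2 and Irf4 were among the 5 members that ended higher. Egr2 read 10.3, 13.3 and 16.1 CPM fresh, 54.3, 58.3 and 65.8 primed and 220.1, 196 and 173 stimulated (net 3.90, adjusted p = 5.73e-12), and Irf4 had a net change of 4.26 (adjusted p = 1.66e-06). Other large falls were in Hes1, a Notch target (-7.56), Nhsl2 (-7.11) and Rasgrp2, an exchange factor for Rap1 (-5.25). Without the first stimulated library those of Hes1 and Nhsl2 were -8.469 and -7.884.

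**Figure D4:**
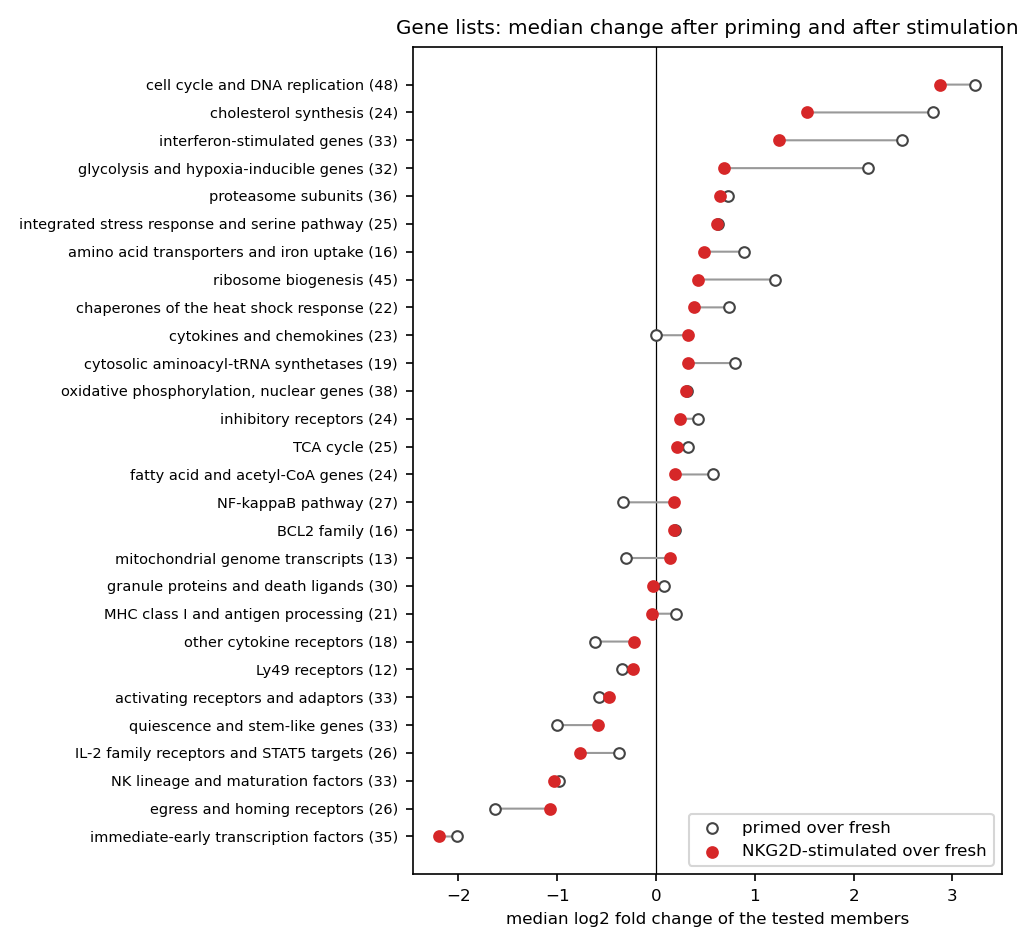
Median log2 fold change of the tested members of each of the 28 lists, as open circles for primed over fresh cells and filled circles for NKG2D-stimulated over fresh cells, with the number of tested members in brackets; the medians of all tested genes were -0.06 and -0.01. The circles lie far apart for glycolysis (2.15 and 0.68), cholesterol synthesis (2.80 and 1.53) and interferon-stimulated genes (2.49 and 1.25) and close together for NK lineage factors and proteasome subunits.

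NF-kappaB pathway genes stood out by the step in which they changed. Of the 27 tested, stimulation raised 18 where it raised 9.2% of all genes. In the net comparison 10 ended higher and 8 lower than in fresh cells, beside 26.3% and 26.1% of all genes. Tnip1, an inhibitor of NF-kappaB signalling, read 68.8, 68.7 and 74.7 CPM fresh, 88.6, 88.9 and 80.2 primed and 199, 183 and 181 stimulated (net 1.41, SE 0.124, adjusted p = 5.38e-08), and Cd83, an activation marker, 5.5, 3.71 and 3.25, 3.31, 4.8 and 4.92 and 49.7, 29.8 and 25.4 CPM (net 3.07). Tnfaip3, the inhibitor A20, was raised by stimulation only part of the way back, at 506, 476 and 492, 26.3, 27.8 and 30.8 and 70.9, 59.9 and 43.8 CPM (net -3.08, adjusted p = 8.57e-10), and Map3k8 ended at -1.99. Tnip1 and Cd83 were thus highest after stimulation and Tnfaip3 was highest in fresh cells.

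Factors of the NK lineage and of quiescence were lower. Of 33 lineage and maturation factors 24 were lower and 2 higher (median -1.03), and of 33 quiescence and stem-like genes 23 were lower and 3 higher (median -0.59). Over all genes tested 26.1% were lower and 26.3% higher. Tbx21, T-bet, read 64.2, 63.7 and 64.2 CPM fresh, 18.1, 15.8 and 12.3 primed and 21, 22.2 and 19.2 stimulated (net -1.62, adjusted p = 1.11e-08), and Eomes 142, 202 and 183, 62, 71.5 and 71.2 and 52.6, 61.6 and 58.4 CPM (net -1.61, adjusted p = 9.7e-09). Bhlhe40, a repressor of the helix-loop-helix class, and Ikzf1, Ikaros, fell in both steps (net -2.87 and -1.56). Klf2, the quiescence factor at chr8:72319033-72321656 (plus strand), went from 252, 266 and 301 CPM to 2.97, 2.67 and 2.43 and 0.828, 0.525 and 1.08 (net -8.38, SE 0.235, adjusted p = 1.52e-13). Slfn2, a Schlafen gene of lymphocyte quiescence, moved against the list and held a rise of 1.64 (adjusted p = 1.47e-09).

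Receptors for egress and homing divided between those that stayed down and those that recovered in part. Of 26 tested, 17 were lower and 6 higher in the net comparison (median -1.08), although stimulation raised 12 of them. S1pr1, the egress receptor that KLF2 controls, read 61.9, 62.3 and 62.8 CPM fresh, 0.944, 0.764 and 0.123 primed and 2.68, 3.62 and 3.98 stimulated (net -4.19, adjusted p = 1.18e-07). The partial rise of S1pr1 thus stood beside a further fall of Klf2. S1pr5 stayed at its low primed level (net -4.52), and S1pr4 met the rule of return (net -0.43, interval -0.92 to 0.06), but in only 2 of the 9 fits that left out 1 library. Cx3cr1, the fractalkine receptor, regained part of its level: 166, 121 and 148, 3.54, 2.51 and 3.38 and 29, 20.8 and 21.7 CPM (net -2.60). The integrin genes Itga1 and Itga2, subunits used to tell tissue-resident from circulating cells, moved apart, Itga1 rising by 3.23 (adjusted p = 4.39e-06) and Itga2 falling by 3.03 on the log2 scale (adjusted p = 2.45e-12). Itga1 is also 1 of 9 tested markers of type 1 innate lymphoid cells, of which 4 rose and 0 fell. Over all genes tested 26.3% were higher and 26.1% lower. The summed level of the markers was 73.8 to 274 CPM in fresh and 327 to 521.5 CPM in stimulated libraries. Replicate 1 stood apart in some of these markers in every condition. Il7r read 72.8, 21.4 and 16.2 CPM fresh, 15.9, 3.98 and 2.98 primed and 37.8, 9.16 and 9.88 stimulated. Cxcr6 read 47.7, 7.98 and 8.85 CPM fresh and 242, 136 and 134 stimulated. Itga1 stood apart in the first fresh library alone, at 16.6, 4.04 and 4.40 CPM, and without that library its rise was 4.23. The part of such cells in the result was not tested. Further partly reversed falls were those of Mcam (-2.98), Frat1 (-2.42), Rap1gap2 (-3.19) and Tspan32 (-3.09).

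IL-2 family receptor and STAT5 target genes fell more often than they rose, 12 against 6 of 26 tested, beside 26.1% and 26.3% of all genes tested. Socs3, a feedback inhibitor of cytokine receptors, read 96.7, 118 and 97.9 CPM fresh, 1.42, 1.31 and 3.59 primed and 0.428, 0.572 and 0.421 stimulated (net -7.78). Il2ra, the high-affinity IL-2 receptor chain, rose from 12.5, 2.06 and 2.46 CPM to 52.9, 59 and 49 and 183, 113 and 93.6 (net 4.49, adjusted p = 2.43e-06, and 5.849 without the first fresh library). Il2rb, the receptor chain shared by IL-2 and IL-15, read 3033, 3107 and 3446 CPM fresh and 2953, 2482 and 2063 stimulated, a difference of -0.35 that did not pass (adjusted p = 0.0549) but did, at -0.48, without the first stimulated library. Cish, a STAT5 target and feedback inhibitor, read 13.7, 11.1 and 14, 93.6, 93.7 and 76 and 53.4, 14.8 and 14.3 CPM. Stimulated replicates 2 and 3 of Cish were near the fresh level and replicate 1 was not, and its net rise of 1.10 (adjusted p = 0.0187) did not pass without that library or without the second fresh library (adjusted p up to 0.502). Bcl2, the survival gene, ended lower (-1.46, adjusted p = 3.01e-09), with 393 CPM on average when primed and 99.9 after stimulation. Bcl2l11, which encodes the death-promoting protein BIM, ended higher (1.90, adjusted p = 4.12e-10), and of the 16 BCL2 family genes 7 were higher and 6 lower.

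Most proliferation genes stayed above the fresh level, although many came down from the primed level. Of 48 cell cycle and DNA replication genes 40 were higher than in fresh cells and 3 lower (median 2.87), with 19 held and 21 partly reversed. Stimulation lowered 28 and raised 0. The summed level of the list was 2336 to 2843 CPM in fresh, 8073 to 8748 in primed and 5249 to 5306 in stimulated libraries. Mki67, the proliferation antigen, read 7.05, 10.6 and 10.1 CPM fresh, 76.2, 66.1 and 65.3 primed and 69.1, 75.1 and 90.6 stimulated (net 3.09, SE 0.21, adjusted p = 2.06e-09). Bub1b, a spindle checkpoint kinase (4.90), was held, and Pclaf, a partner of the replication clamp (4.55), and E2f8, an E2F factor (4.46), were partly reversed. Mcm4, of the replicative helicase, was the member that returned (105, 127 and 129, 276, 279 and 252 and 153, 141 and 131 CPM, net 0.23). Its net rise passed without the third stimulated library. Ccnd2 and Ccnd3, genes of G1 cyclins, moved against the list. Ccnd2 read 877, 1151 and 1134, 1055, 890.2 and 859 and 419, 293 and 268 CPM (net -1.69). Ccnd3 read 326, 351 and 362, 114, 99.3 and 229 and 52.3, 40 and 35.5 CPM (net -3.02).

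Other growth and housekeeping lists changed less per gene. Of 36 proteasome subunits 31 were higher and 1 lower (median 0.64), with net rises such as 1.09 for Psma7; Psmd3 fell (-1.42). Of 38 nuclear genes of oxidative phosphorylation 21 were higher and 2 lower (median 0.30), of 25 citric acid cycle genes 12 and 5, of 19 cytosolic aminoacyl-tRNA synthetases 12 higher, and of 22 chaperones 12 and 3. Of 25 genes of the integrated stress response and serine pathway 14 were higher and 4 lower, led by Asns, asparagine synthetase, at 0.426, 0.61 and 0.314 CPM fresh, 27.2, 44.5 and 38.6 primed and 39.3, 30.3 and 31.4 stimulated (net 6.20). Of 16 amino acid transporter and iron uptake genes 8 were higher and 5 lower, and of the 8 that priming changed at least 2-fold 4 were partly reversed and 4 held. Slc7a5, the large neutral amino acid transporter, read 2.52, 1.97 and 2.72, 22, 26.3 and 24.8 and 14.2, 11.4 and 6.93 CPM (net 2.17), and Tfrc, the transferrin receptor, 7.9, 7.23 and 8.9, 79.9, 115 and 91.6 and 49.5, 31.7 and 25.8 CPM (net 2.16). Of 21 genes of MHC class I and antigen processing 5 were higher and 7 lower, and of the 13 transcripts of the mitochondrial genome mt-Co3 alone passed (0.74). Of 18 other cytokine receptors 4 were higher and 6 lower, among the latter Ifngr1 (-1.24, adjusted p = 6.85e-08). For these receptors and the MHC class I genes the counts were near the shares of all genes tested, 26.3% higher and 26.1% lower.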

How the data were processed

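RNA was sequenced from sorted NK cells in 18 libraries, 3 for each of 2 genotypes and 3 conditions; the 9 wild-type libraries are described here. The authors deposited a table of gene counts on mm10. The tools DRAGEN, bcl2fastq and edgeR are named per the submitters' processing notes; settings and annotation were not given in these sources. Per the labels' protocols RNA was extracted with RNeasy columns and libraries were made with a Takara-Clontech SMARTer kit. The values the authors deposited are expected counts (unscaled estimates of the reads of each gene), since 30% of those above 0 are not whole. The design had assumed whole counts, and values were rounded for the same test. Reads carry no molecular barcodes, and strand use is not given, so overlapping genes cannot be told apart. The authors' comparison tables of knock-out with wild type were not used here.

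The main test was edgeR 4.0.16 (R 4.3.3) with quasi-likelihood dispersion and TMM factors, fitted to all 18 libraries with 1 mean per group, on the 14864 genes kept by its expression filter (12 residual and 5.14 prior degrees of freedom). P-values were adjusted over all genes tested within each comparison, and intervals are 95%. The script was tested on simulated data. Counting intervals for genes with up to 3 reads in a group are exact binomial intervals. The other settings were DESeq2 1.42.0, limma 3.58.1 (voom), other scalings, filters, sample sets, rules of return and leaving out each wild-type library.

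Gene lists and the rule for named genes were chosen with earlier results of these data known. The rule took the 10 largest net rises and falls with non-overlapping libraries and a mean log2 CPM of 3 or more, from each list the 2 higher and the 2 lower members with the smallest p, a preset group of receptor, effector and metabolism genes, and up to 8 genes by size of the priming change, in each direction, that returned, were partly reversed, passed the fresh level or were extended. Predicted genes and markers of other cells were left out of the largest changes. A few genes that the rule took are not reported here. Other list members, the sex-linked and other-cell markers, the genes nearest the limit, Irf8 and H2-D1 in primed cells and Kcnn4 were named after their values were seen.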

Additional observations from a re-analysis of the deposited data

How the results depend on the processing

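The net comparison called 7800 genes (3914 higher and 3886 lower), and the count, each direction and the 178 returned genes stayed within 1.5 times under DESeq2, voom, RLE factors, library totals alone, both other filters, the 9 wild-type libraries alone and, for the net counts, the 6 compared libraries alone. Voom called 10003 genes, and 110 of its 235 returned genes were among the 178. A test against a minimum 2-fold change called 2228 genes, 1164 higher and 1064 lower, and left 31 returned; it asks for more of every step. By construction fewer or more genes returned under a margin of 1.5-fold (59), a minimum priming change of 4-fold (10) or none (634). Leaving out 1 library gave 6774 to 7991 genes, 3456 to 3963 higher, 3270 to 4028 lower and 156 to 193 returned. Of 3322 results for 175 named genes under these settings none reversed, 56 lost and 69 gained the call and 3197 kept their side of the threshold.

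Replicate 1 had the female pattern in every condition, but a shared sex is not a shared animal, and the replicate numbers were not taken as pairs: deviations of same-numbered libraries correlated over 8253 genes at 0.257, 0.0427 and -0.0823 between fresh and primed, 0.226, 0.204 and 0.0196 between fresh and stimulated, and 0.109, -0.0981 and -0.388 between primed and stimulated cells. A replicate block within genotype called 7283 genes and 173 returned genes, 155 of them among the 178. A return asks for a narrow interval, so a gene with a wide one could not meet the rule. At the depth of these libraries genes near the detection limit, such as Ccl1, Gzmd and Gzme in fresh cells, allow only ratios with wide counting intervals.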
